A study of Mus musculus with 2 samples.

Results

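The sort that made these libraries was set to leave out epithelial cells, yet 316 of the 13168 barcodes that passed the quality limits were epithelial: 35 of 6599 in the ApcMin library and 281 of 6569 in the VApcMinL library. A member was a barcode with at least 3000 unique molecular identifiers (UMIs, 1 per captured RNA molecule), at most 20% of them from mitochondrial genes, at least 5 UMIs of Epcam, the epithelial adhesion molecule, and none of Ptprc (CD45, on leukocytes) or Pdgfra (on fibroblasts). Members were thus selected on measured values, and the levels of Epcam, Ptprc and Pdgfra in them are no results. The count of members per library is a description as well.

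Both libraries were single-cell RNA-seq of intestinal cells from C57BL/6 mice aged 11 weeks, taken after EDTA and Liberase TL digestion as live cells negative for Ter119, Epcam and CD45. ApcMin stands for ApcMin/+;Lef1 +/+ mice, which carry the Min mutation of the tumour suppressor Apc and an intact Lef1. VApcMinL stands for ApcMin/+;Lef1 fl/fl; Villin-Cre mice, which carry the same Apc mutation and in which a Cre recombinase driven by the Villin promoter, active along the intestinal epithelium, recombines Lef1. Both groups therefore share the Apc mutation, and the epithelial cells are the cells in which the recombinase acts. There was 1 library per genotype, the number of mice behind each was not given in the sources used here, and no genotype difference could be tested. Intervals are exact, at 95%, and hold counting error alone. Genotype, animal and library cannot be told apart in any comparison between the libraries.

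Intestinal epithelium is renewed from stem cells at the crypt base, whose daughters divide, stop dividing and move up the villus. Most become enterocytes, which absorb fat, sugar and peptides through a brush border, and the rest become goblet, Paneth, enteroendocrine or tuft cells. Lef1 is a partner of beta-catenin in Wnt signalling, the pathway that keeps crypts dividing and that loss of Apc switches on in adenomas.

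The members made up 0.530% (0.370 to 0.737) of passing barcodes in ApcMin and 4.28% (3.80 to 4.80) in VApcMinL, a ratio of 8.07 (5.66 to 11.8). The libraries held 93203061 and 101609269 UMIs, of which members carried 1.70% and 11.7%. UMIs per member were 7607, 44357 and 124563 (lowest, median and highest) in ApcMin and 3575, 41649 and 396545 in VApcMinL, above the median of the other passing barcodes (10814 and 8843). The median mitochondrial share of members was 11.8% and 12.0%, against 2.72% and 3.06% in the other barcodes, so the limit of 20% cut through the epithelial cells. A further 27 and 195 barcodes met every other condition but lay over it. The Epcam limit divided the barcodes more sharply: 8 ApcMin and 4 VApcMinL barcodes had 3 to 4 Epcam UMIs, 1 and 6 members had 5 to 10, and 34 and 275 had more. No barcode sequence was shared by members of both libraries, although 18 were shared by the passing barcodes of both, 1 of them a VApcMinL member.

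Lef1 (chr3:131110471-131224356, GRCm38), the recombined gene, gave 11 UMIs in the ApcMin members and 23 in the VApcMinL members. The 11 ApcMin UMIs came from 2 cells, 1 of which held 10, and all lay among members with almost no enterocyte RNA, described further on. The VApcMinL library held 21 of its 23 in the same kind of cell. Which part of Lef1 is removed was not given in the sources used here and the reads are 3′ tags, so these UMIs do not check the deletion.

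Most members were enterocytes by their RNA, 268 of 281 in VApcMinL and 28 of 35 in ApcMin by a limit given further on. Apoa1, an apolipoprotein of chylomicrons, Fabp1, which carries fatty acids, Reg3b, a lectin that kills bacteria, and Sis, the sucrase-isomaltase of the brush border, were given as markers along with Epcam. At least 1 UMI of Apoa1 was found in 82.9% of ApcMin and 99.6% of VApcMinL members, and of Sis in 82.9% and 95.4%. That limit is set on the share of UMIs on 10 genes that include Apoa1 and Fabp1. Finding Apoa1 in 100% of the members above it, in both libraries, thus follows largely from the definition and is no support. Of the rest, 1 of 7 ApcMin and 12 of 13 VApcMinL members had an Apoa1 UMI. Of the genes with at least 200 UMIs in the VApcMinL members, 1752 of 5388 (32.5%) were at least 2-fold higher than in the other barcodes of that library. All 10 enterocyte genes that the study plotted in adenomas, among them Alpi, Apoa1, Fabp1, Krt20, Mttp, Prap1 and Rbp2, passed that fold. Genes of enterocytes also occurred outside them: in empty droplets of the VApcMinL library Apoa1 stood at 4848 CPM (UMIs scaled to a total of 1000000) against 20706 CPM in members, so a few UMIs of an abundant enterocyte gene do not mark an enterocyte. The corresponding values in ApcMin were 284 and 11158 CPM.

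Per member, Apoa1 had 0, 119 and 272 UMIs per 10000 (lowest, median and highest) in ApcMin and 0, 219 and 669 in VApcMinL. Fabp1 had 0, 71.1 and 276 in ApcMin and 0, 125 and 545 in VApcMinL. Sis had 0, 40.6 and 115 against 0, 38.6 and 108. The ranges of all 3 genes overlapped between the libraries, with higher medians of Apoa1 and Fabp1 in VApcMinL and near-equal medians of Sis. Over the members with enterocyte RNA alone the ApcMin and VApcMinL medians were 143 and 222 for Apoa1 and 87.1 and 129 for Fabp1. Apoa1 lies at chr9:46228580-46230466, Fabp1 at chr6:71199827-71205023, Reg3b at chr6:78370657-78373466, Sis at chr3:72888557-72967863 and Epcam at chr17:87635979-87651129, all GRCm38.

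Fabp1 and Sis are shown by their promoters because both are known targets of the intestinal factor CDX2, whose gene Cdx2 the members expressed. The sequences are from RefSeq (GRCm38.p6), 5′ to 3′ on the strand of the gene, at chr6:71199629-71199928 (plus strand) for Fabp1 and chr3:72967814-72968113 (minus strand) for Sis, and end 50 bases past the start site. Capitals mark matches on either strand to TTTAT, the core of a CDX site, with overlapping matches counted separately.
Fabp1: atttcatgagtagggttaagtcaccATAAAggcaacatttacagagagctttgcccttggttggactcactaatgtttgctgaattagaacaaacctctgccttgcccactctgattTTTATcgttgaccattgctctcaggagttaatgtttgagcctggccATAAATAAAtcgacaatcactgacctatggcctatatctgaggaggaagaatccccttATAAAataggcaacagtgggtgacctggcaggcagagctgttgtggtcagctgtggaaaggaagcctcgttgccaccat
Sis: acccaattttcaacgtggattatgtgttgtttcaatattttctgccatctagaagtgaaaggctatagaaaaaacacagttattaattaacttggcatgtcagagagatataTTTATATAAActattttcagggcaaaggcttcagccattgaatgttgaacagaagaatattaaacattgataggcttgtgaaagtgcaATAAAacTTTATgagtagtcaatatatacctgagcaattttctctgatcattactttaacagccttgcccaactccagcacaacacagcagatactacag
Fabp1 held 5 matches and Sis 4. Of 27025 genes in the table, 43.8% had a promoter of this length with TTTAT, so the short motif is common and a match is no more than a run of letters. Apoa1 had no match and Reg3b had 2. Among 8 enterocyte genes with a promoter in the table, 5 had TTTAT (Alpi, Fabp1, Krt20, Prap1 and Rbp2).

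**Figure D1:**
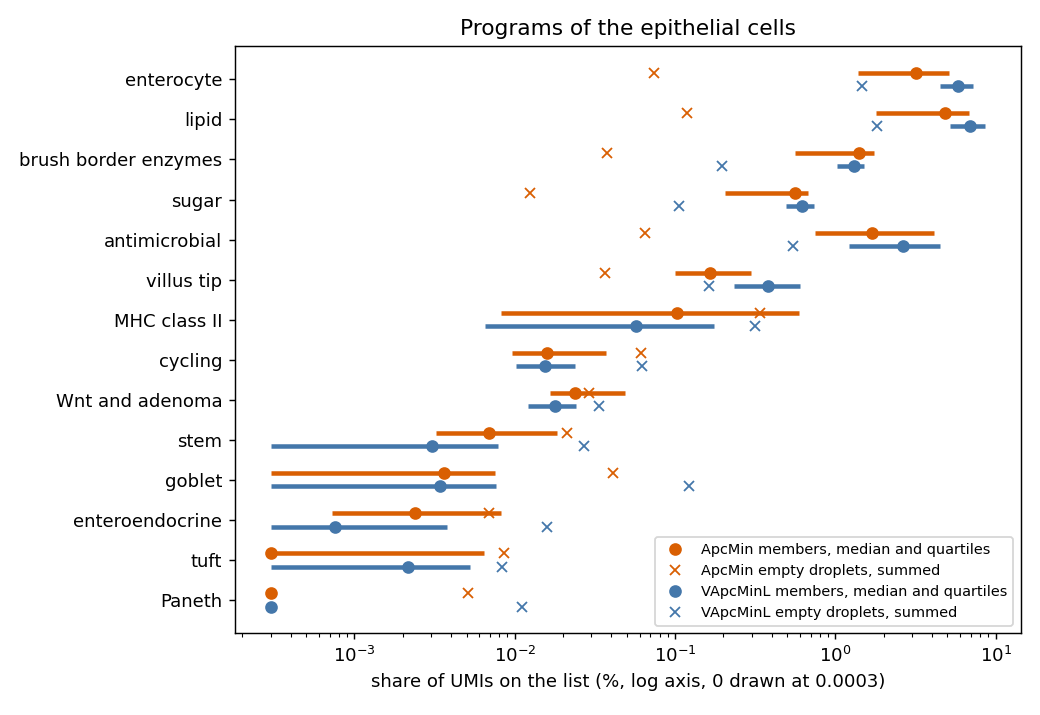
Share of UMIs on each gene list (percent, logarithmic axis, with 0 drawn at the left edge): points are the median and bars the quartiles over the 35 ApcMin and 281 VApcMinL members, and crosses the summed share in empty droplets of each library. Fat, brush border, sugar and antimicrobial lists lie above the empty droplets in both libraries, while the goblet, enteroendocrine, tuft and Paneth medians lie below them.

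Genes of fat absorption formed the largest program. The 15 genes of fat and retinoid uptake and chylomicron assembly took a median of 4.83% of a member's UMIs in ApcMin and 6.91% in VApcMinL. Over the members with enterocyte RNA alone the medians were 5.83% and 7.06%. Fabp2, the second fatty acid carrier, was at 10699 and 12660 CPM in the summed UMIs of ApcMin and VApcMinL members, and Rbp2, which binds retinol, at 5896 and 11594 CPM. Of the 13 genes of this list with enough UMIs, 12 were at least 2-fold higher in VApcMinL members than in the other barcodes of the library.

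Hydrolases of the brush border took a median of 1.40% of UMIs in ApcMin and 1.30% in VApcMinL. Sis led them at 3900 and 3673 CPM, followed by the aminopeptidase Anpep at 1593 and 1779 CPM and the maltase Mgam at 1085 and 1086 CPM. Lct, the lactase, was at 529 and 512 CPM. These levels were close between the libraries, and so was the microvillus scaffold, with Vil1 (villin, whose promoter drives the Cre) at 1041 and 1045 CPM. All 13 hydrolases that could be compared were at least 2-fold higher in VApcMinL members than in other barcodes.

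Sugar transport and metabolism took a median of 0.560% and 0.621% of UMIs in ApcMin and VApcMinL, and peptide and amino acid transport 0.112% and 0.127%. Slc5a1, the sodium-glucose transporter, was at 1458 and 1518 CPM, and Khk, the fructose kinase, at 477 and 589 CPM. Slc15a1, the peptide transporter, was at 200 and 303 CPM. Of the uptake of metals, Heph, a copper oxidase of iron export, was at 112 and 126 CPM, whereas S100g, a calcium carrier, came to 538 and 489 CPM with 823 of the 855 ApcMin UMIs in 1 cell. The calcium channel Trpv6 had 1 UMI in each library.

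Antimicrobial genes varied more between cells than did the digestive programs. Their list took 0%, 1.69% and 11.9% of UMIs in ApcMin (lowest, median and highest member) and 0%, 2.65% and 14.6% in VApcMinL. Reg3b ranged from 0 through a median of 57.1 to 869 UMIs per 10000 in ApcMin and from 0 through 120 to 788 in VApcMinL. Reg3g, its close relative, had medians of 17.4 and 8.78 and reached 260 and 345. Reads of Reg3b, Reg3g and Reg3a could be split between these paralogues. Lypd8, which holds bacteria off the epithelium, was at 2586 and 3420 CPM, and Pigr, which carries immunoglobulin A across it, at 2153 and 2470 CPM. Saa1, Saa2, Lcn2, Duox2 and Nos2, genes of inflamed epithelium, stayed low, with Nos2 at 17.6 and 16.9 CPM.

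Within the members with enterocyte RNA, described further on as the enterocyte range (268 in VApcMinL, 28 in ApcMin), the antimicrobial and the villus-tip programs ran weakly against each other. The antimicrobial list correlated negatively with genes known from the villus tip (Pearson r = -0.27 in VApcMinL, -0.42 in ApcMin), and Reg3b with Apoa4, an apolipoprotein of the upper villus (r = -0.31 and -0.47). Reg3b and Reg3g went together (r = 0.77 and 0.83). The fat list and the villus-tip list, which share Apoa4, had r = 0.65 and 0.76. MHC class II genes were lower where villus-tip genes were higher (r = -0.21 and -0.55). Cells of 1 library share their preparation and the shares sum to a whole, so these coefficients are descriptions, and those near -0.3 are weak.

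**Figure D2:**
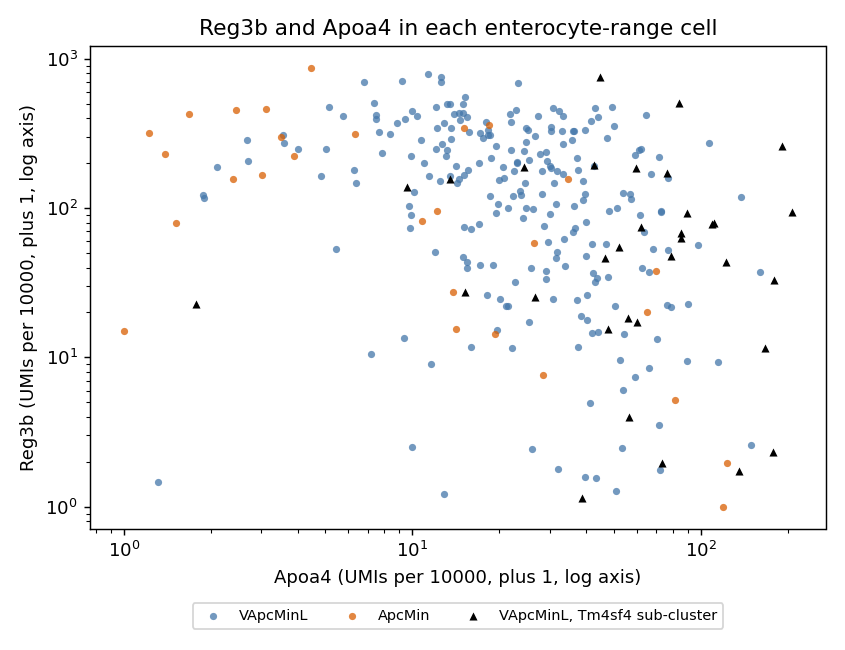
Reg3b against Apoa4 in each enterocyte-range cell, both as UMIs per 10000 plus 1 on logarithmic axes, with 268 VApcMinL cells in blue or black and 28 ApcMin cells in orange. The cells scatter widely and low Reg3b is found mostly at high Apoa4; black triangles are the VApcMinL cells of the sub-cluster led by Tm4sf4.

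The villus-tip list stood at a median of 0.166% of UMIs in ApcMin and 0.382% in VApcMinL, and most of it was Apoa4 and the keratin Krt20. Apoa4 had 0, 2.89 and 123 UMIs per 10000 in ApcMin and 0, 24.5 and 206 in VApcMinL. In enterocyte-range cells the medians were 10.5 and 26.5 for Apoa4, whose summed log2 ratio there was 0.42, and 0.214% and 0.389% for the list. Nt5e and Slc28a2, genes that mark the extreme tip, had 1 UMI each in ApcMin and 14 and 5 in VApcMinL, and Egfr had 18 and 82. Ada, also on the list, had 44.4% of its UMIs in VApcMinL members in 1 cell, which held 68. The list was thus carried more by Apoa4 and Krt20 than by genes of the extreme tip. Klf4, a factor of differentiated cells, was at 200 and 381 CPM but lay below its level in the other barcodes (0.48 times in VApcMinL).

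Transcription factors of the intestinal epithelium were present in nearly every member. Klf5 was at 418 and 406 CPM in ApcMin and VApcMinL, Hnf4g at 238 and 258, and Hnf4a at 111 and 102. Cdx2 was found in 91.4% and 89.0% of members. None of the 10 factors with enough UMIs differed 2-fold between the libraries. Region genes were mixed: Slc51a, a bile acid exporter of the ileum, was at 389 CPM in both, Lct belongs to the jejunum, Slc26a3, an anion exchanger most abundant in the colon, was at 132 and 191 CPM, and Car1 of the colon had no UMI. Fabp6, the ileal bile acid carrier, was found in 11.4% and 1.42% of members and Gata4, of the upper small intestine, in 77.1% and 76.9%.

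Outside the lists, the genes with the largest ratio of VApcMinL members to other barcodes were led by Sprr1a (46.7-fold), a cornified envelope gene, found in 5.34% of members. Enzymes of steroid, drug and retinoid metabolism followed: Hsd17b6 (35.5-fold), Cyp2c68 (31.2), Cyp2b10 (30.8), Adh4 (30.3), Rdh16f2 (29.8) and Cyp4f14 (29.5). Enpp7, the intestinal sphingomyelinase, was 30.9-fold higher, Naaladl1, a peptidase, 30.2-fold and Rhbg, an ammonium transporter, 29.7-fold. The remaining 5 were Gm11437 (37.5), Als2cr12 (32.4), Gm5485 (30.6), Barx2 (30.2) and 2010106E10Rik (29.6). Apoa1, Reg3b, Fabp1 and Sis themselves were 27.1-, 29.8-, 26.0- and 27.3-fold higher. The other barcodes included epithelial ones that the rule left out: the 53 enterocyte-range Epcam barcodes with a Ptprc or Pdgfra UMI held 41475 of the 48664 Apoa1 UMIs of the other VApcMinL barcodes. In barcodes without Epcam, Apoa1 was at 118 CPM.

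Secretory programs were nearly absent. Muc2, the mucin of goblet cells, had 1 UMI in ApcMin members and 3 in VApcMinL members. Clca1 had 1 and 2 and Fcgbp 2 and 7. Tff3, at 11 and 174 UMIs, stood in VApcMinL members at 0.06 times its level in empty droplets, and Zg16, at 1 and 107 UMIs, at 0.02 times. Spink4 was found in 37.1% and 39.9% of members at 29 and 298 UMIs in all, 0.07 times its level in VApcMinL empty droplets. The goblet list took a median of 0.00359% and 0.00342% of a member's UMIs, against 0.0408% and 0.122% in empty droplets, so these UMIs were below background. Agr2, a secretory disulphide isomerase, was the exception at 184 and 260 UMIs, of which 182 and 253 lay in members without enterocyte RNA.

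The Paneth, enteroendocrine and tuft lists took at most 0.0818%, 0.0334% and 0.0545% of any member's UMIs. Among the Paneth genes, the defensins Defa17, Defa21, Defa22 and Defa26 and the ribonuclease Ang4 had no UMI, and Defa24 had 0 and 3. Lyz1 had 24 UMIs in 1 ApcMin member, which also held 9 of Itln1, and 31 in VApcMinL members, 17 of them in 1 member. Neurod1, Neurog3, Cck, Gcg, Tph1 and Pax4, which define enteroendocrine cells, had none, while Sct, the secretin gene, had 32 and 192 UMIs scattered over 45.7% and 39.5% of members, and Chga 16 and 26. Chgb had 12 UMIs in 1 ApcMin member, which also held 2 of Chga, and none in VApcMinL members. Of the tuft genes Pou2f3, Il25, Gfi1b, Rgs13 and Alox5ap had none, Dclk1 had 4 and 4 and Trpm5 1 and 8. Others were seen: Ltc4s reached 14 and 10 UMIs in a member and Avil 8 and 31. The 1 tuft gene with enough UMIs was at least 2-fold higher in VApcMinL members than in other barcodes. The tuft list took medians of 0% and 0.00217% of a member's UMIs, against 0.00860% and 0.00834% in empty droplets. A count of 0 among 35 ApcMin members allows a share of up to 8.57% at a floor of 3 counts, or 10.0% by the exact interval, so a rare type could be missed there.

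Crypt programs were concentrated in a small set of members that had almost no enterocyte RNA. The 10 enterocyte genes took either at most 0.107% of UMIs or at least 0.463% in ApcMin, and at most 0.0794% or at least 0.399% in VApcMinL. A limit of 0.2%, placed in this gap after the values were seen, left 7 of 35 members (20.0%, 8.44 to 36.9) below it in ApcMin and 13 of 281 (4.63%, 2.49 to 7.78) in VApcMinL, called low-range cells here. The other 28 and 268 are called enterocyte-range cells. The median mitochondrial share was 4.98% and 4.46% in low-range cells and 12.1% and 12.0% in enterocyte-range cells. Because the gap was found in these cells, levels on either side of it are descriptions.

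**Figure D3:**
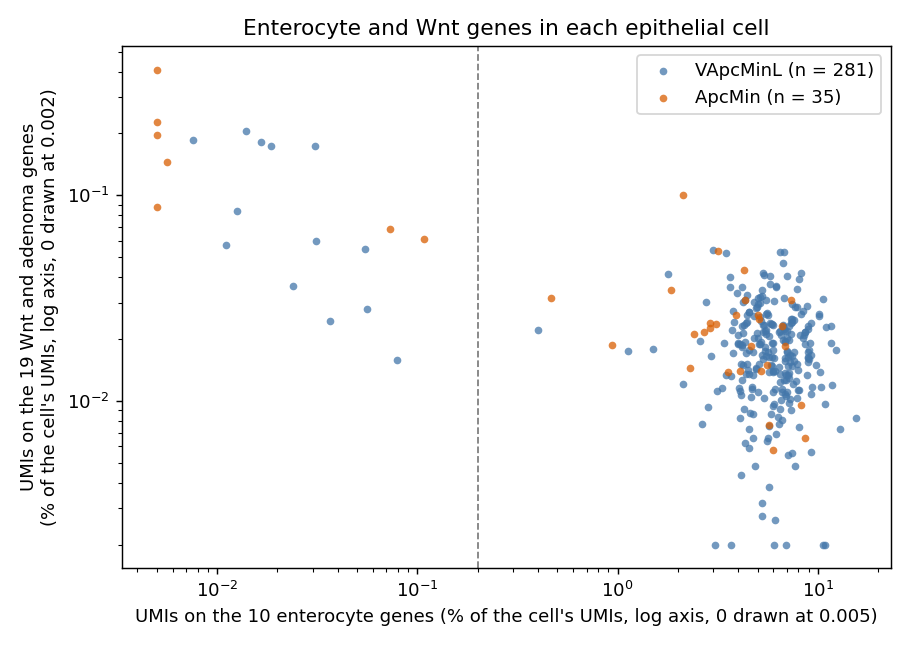
Share of each cell's UMIs on the 19 Wnt and adenoma genes against its share on the 10 enterocyte genes (percent, logarithmic axes, with 0 drawn at the edge), 1 point per cell, blue for VApcMinL and orange for ApcMin. Left of the dashed line at 0.2% lie 7 of 35 ApcMin and 13 of 281 VApcMinL cells, several with more Wnt UMIs than any cell to its right.

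Low-range cells led the members in stem, Wnt and division genes. Lgr5, the crypt stem cell receptor, had 26 UMIs in 3 of 7 ApcMin cells (9, 16 and 1) and 15 in 4 of 13 VApcMinL cells. Olfm4, another stem cell gene, had 186 UMIs in ApcMin, all of them in 2 cells (20 and 166) that lacked Lgr5, and none in VApcMinL. Sox9, a crypt and progenitor factor, was found in 7 of 7 and 7 of 13 cells, at 374 CPM and 86.4 CPM. Mki67 and Top2a, genes of dividing cells, had 63 and 48 UMIs in ApcMin and 137 and 268 in VApcMinL. The stem cell list took a median of 0.148% of UMIs in these ApcMin cells and 0.0751% in these VApcMinL cells, against 0.00471% and 0.00281% in enterocyte-range cells.

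Wnt feedback genes known from Apc-mutant adenomas were among the clearest in these cells. Axin2 was at 124 CPM in ApcMin (6 of 7 cells) and 135 CPM in VApcMinL (8 of 13 cells). Notum, a secreted Wnt inhibitor, had 36 and 84 UMIs and Nkd1 57 and 83, with 30 and 41 of the ApcMin UMIs in 1 cell. Without the cell of each library with the most UMIs of the gene, Notum was at 17.6 CPM in ApcMin and 118 CPM in VApcMinL. Nkd1 was then at 46.9 and 71.4 CPM. Prox1, a factor of intestinal adenomas, had 111 UMIs in 5 of 7 ApcMin cells (1, 5, 29, 71 and 5) and 117 in 6 of 13 VApcMinL cells (12, 23, 1, 13, 30 and 38). All 4 genes were thus present in low-range cells of both libraries, and for Axin2 and Prox1 the cells of the libraries overlapped.

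Msx1, a homeobox gene also known from Wnt-driven tumours, was uneven between the libraries. It had 3 UMIs in ApcMin, 1 in each of 3 of the 7 cells (7.59 CPM, 1.56 to 22.2), and 301 UMIs in 8 of 13 VApcMinL cells (356 CPM, 317 to 399). The 8 cells had 2, 67, 19, 2, 190, 8, 3 and 10 UMIs. Without the cell of 190 UMIs, which had 396545 UMIs in all, the level was 248 CPM. The cells with 67, 19, 190 and 8 UMIs of Msx1 also held 4, 7, 6 and 2 UMIs of Lef1 and 23, 13, 30 and 38 of Prox1. Over all low-range cells Lef1 was at 27.8 CPM (13.9 to 49.8) in ApcMin, where 10 of 11 UMIs lay in the cell with the most Prox1, and at 24.9 CPM (15.4 to 38.0) in VApcMinL. In empty droplets Lef1 was at 4.98 and 4.85 CPM. Lef1 messages were therefore present in the VApcMinL epithelial cells with Wnt target genes, at a summed level inside the interval of ApcMin.

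**Figure D4:**
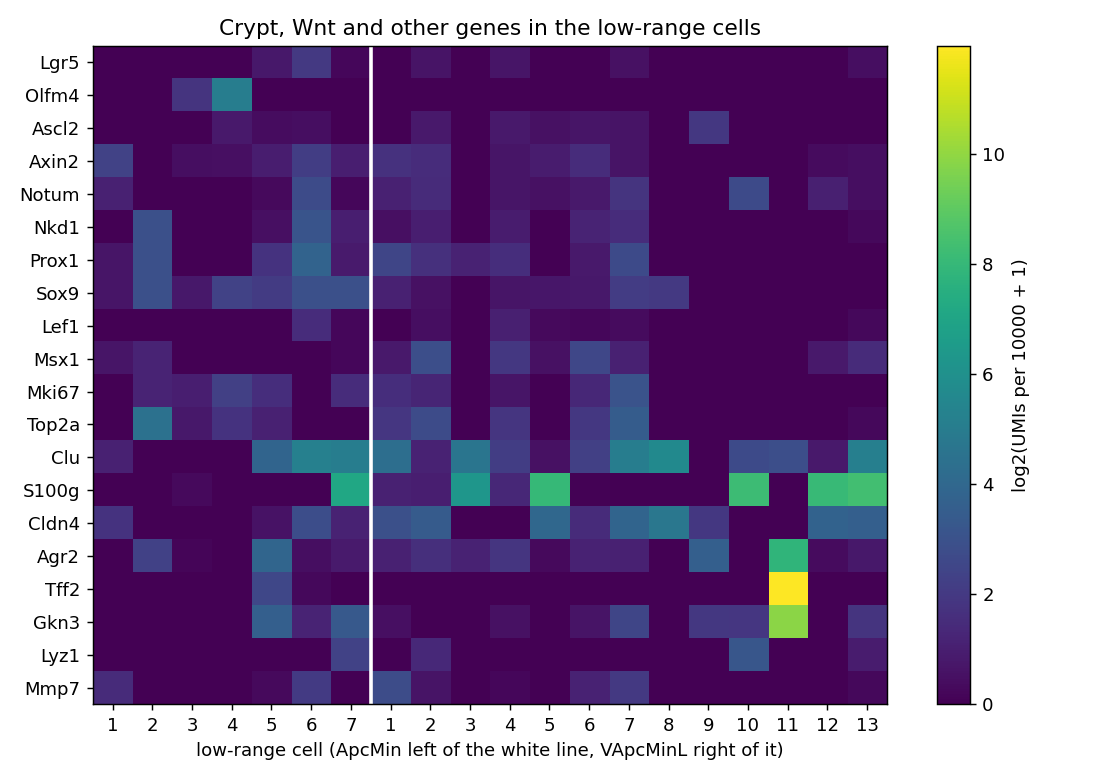
Heat map of log2(UMIs per 10000 plus 1) for crypt, Wnt and other genes in each low-range cell, 1 column per cell, with 7 ApcMin columns left and 13 VApcMinL columns right of the white line. Prox1 and Axin2 appear on both sides and Olfm4 in 2 ApcMin cells. S100g is bright in several cells and Tff2 in 1 VApcMinL cell.

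Other low-range cells had their own leading genes. S100g reached 1175, 1023 and 1787 UMIs in 3 VApcMinL cells of 45347, 38503 and 55798 UMIs. In 1 ApcMin cell of 59271 UMIs it reached 823. The next VApcMinL cells held 108 and 63 UMIs of S100g, but had only 3668 and 8204 UMIs in all. Relative to its UMIs, the cell of 108 was thus among the highest, and raw counts do not rank these cells. In 1 VApcMinL cell of 6298 UMIs, 2501 were Tff2, and genes of the stomach took 49.2% of the UMIs, a gastric program. The highest share of stomach genes in ApcMin was 0.189%, in a cell of 124563 UMIs. That cell had 139 UMIs of Gkn3, 61 of Tff2 and 25 of Tff1, beside 9 of Lgr5 and 29 of Prox1. Clu, known from regenerating epithelium, had 555 and 769 UMIs. The metalloprotease Mmp7, a Paneth gene that adenomas also express, had 23 and 91 UMIs, all but 1 of them in cells with Prox1.

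The library comparison was led with enterocyte-range cells, since in the sum over all members a few large low-range cells set many values. Over all members, 99 of 5812 genes with at least 200 UMIs (1.7%) were at least 2-fold higher and 185 (3.18%) at least 2-fold lower in VApcMinL, at a median log2 ratio over all genes of -0.13. With median-ratio scaling in place of CPM the split was 130 higher and 128 lower. In enterocyte-range cells 98 of 5301 (1.85%) were higher and 51 (0.962%) lower, at a median of -0.08. These shares are the background for each list below. No gene of the enterocyte, fat, brush border scaffold, peptide transport or factor lists passed 2-fold in enterocyte-range cells, and their median log2 ratios were 0.32, 0.25, -0.14, 0.26 and -0.04. Of 6 calcium and iron genes compared, 4 were at least 2-fold higher in VApcMinL, at a median log2 ratio of 1.70. So were 2 of 5 genes of the upper small intestine. Cybrd1, on both lists, had 317 UMIs in 8 VApcMinL enterocyte-range cells, 176 of them in 1 cell. Slc40a1, also on both, drew 25.7% of its UMIs in VApcMinL members from 1 cell.

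The gene that separated the libraries most was St3gal4, a sialyltransferase that caps sugar chains with sialic acid. It had 4 UMIs in the 28 ApcMin enterocyte-range cells, all in 1 cell, and 9680 UMIs in VApcMinL, in 266 of 268 cells. In UMIs per 10000 the ApcMin members ran from 0 through a median of 0 to 0.921 and the VApcMinL members from 0 through 8.77 to 19.8, or a median of 9.01 in enterocyte-range cells. The summed level was 3.35 CPM against 873 CPM, a log2 ratio of 8.02 (ratio 260, 102 to 956). Thinned to equal UMIs per cell, 0% of ApcMin and 89.6% of VApcMinL cells had a UMI. The libraries overlapped only at the bottom of the VApcMinL range, and low-range cells held 0 and 4 UMIs of St3gal4 in ApcMin and VApcMinL.

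The same gene was read in epithelial barcodes that the rule left out, which come from the same 2 libraries and are not replicates. Only those in the enterocyte range were taken, 26 of 27 ApcMin and 189 of 195 VApcMinL barcodes over the mitochondrial limit, and 8 of 14 and 53 of 65 Epcam barcodes with a Ptprc or Pdgfra UMI. Over the mitochondrial limit St3gal4 had 1 UMI in ApcMin and 2227 in VApcMinL, in 95.8% of the VApcMinL barcodes. With a Ptprc or Pdgfra UMI it had 1 and 1676. In barcodes without Epcam the level was 16.7 CPM in ApcMin and 26.6 CPM in VApcMinL, found in 15.8% and 20.5%. The difference between the libraries was thus many times larger in epithelial barcodes than in the rest (log2 ratios of 6.75 and 6.60 with ApcMin set at 3 UMIs, against 0.67).

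**Figure D5:**
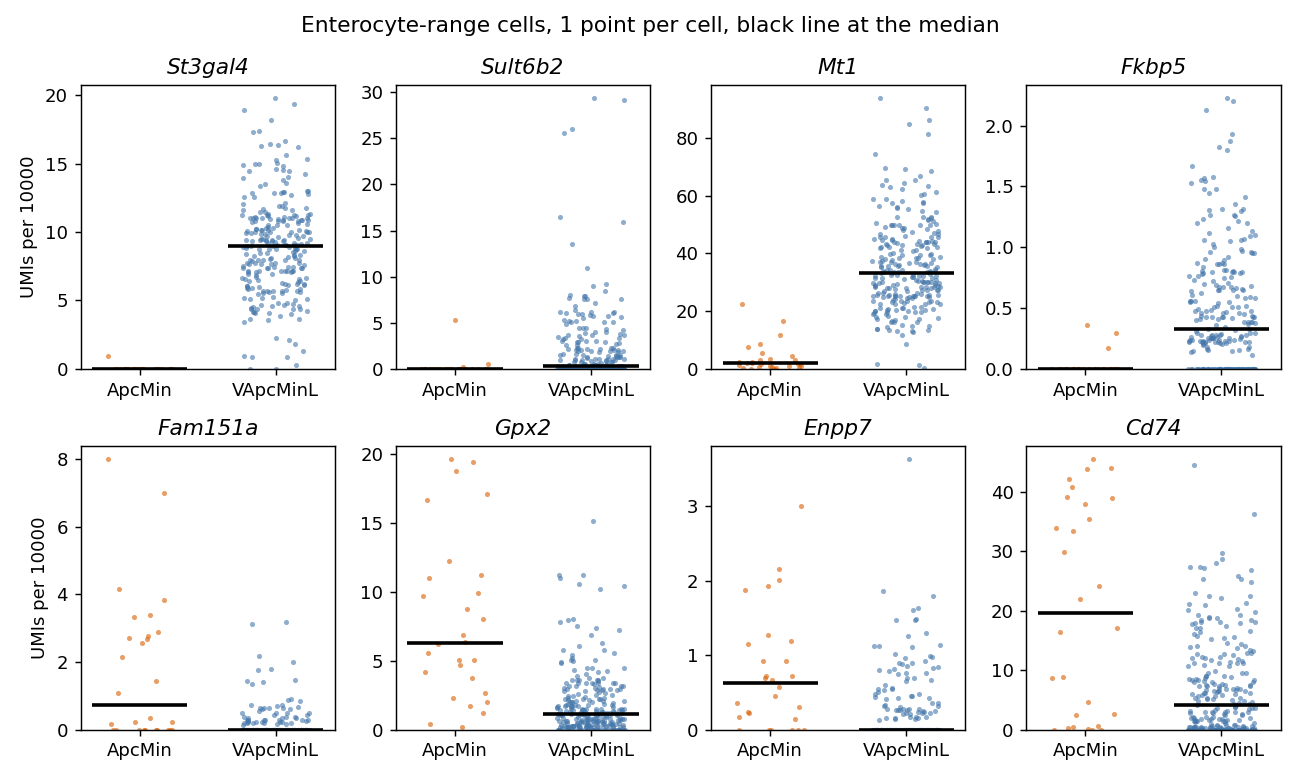
UMIs per 10000 of 8 genes in each of the 28 ApcMin (orange) and 268 VApcMinL (blue) enterocyte-range cells, with a black line at the median and a linear axis for each gene. St3gal4 lies at 0 in all ApcMin cells but 1 and has a median of 9.01 in VApcMinL, whereas the cells of Fam151a, Gpx2, Enpp7 and Cd74 overlap.

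Mt1, Mt2, Fkbp5 and Sult6b2 were also higher in VApcMinL enterocyte-range cells. The metallothioneins Mt1 and Mt2 were at 406 and 16.8 CPM in ApcMin and 3534 and 200 CPM in VApcMinL (log2 ratios of 3.12 and 3.57). Mt1 was higher in the left-out epithelial barcodes too (3.61 over the mitochondrial limit and 1.49 with a Ptprc or Pdgfra UMI), and by 0.52 in barcodes without Epcam. Fkbp5, a chaperone partner of steroid receptors that glucocorticoids induce, was at 2.51 and 46.5 CPM (4.21), found in 10.7% and 71.6% of cells. In barcodes without Epcam its log2 ratio was 0.49. Sult6b2, a sulphotransferase, was at 23.5 and 219 CPM (3.22) and also higher in both left-out sets (3.01 and 4.76).

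Other genes higher in VApcMinL were carried by some of the cells: Tm4sf4, a tetraspanin relative (5.03 and 267 CPM, log2 5.73), S100a6 (17.6 and 390 CPM, 4.47), Clca4a (4.27), the claudin Cldn4 (3.98) and the complement gene C3 (3.59). S100a6 had a log2 ratio of -0.02 over all members, while in low-range cells it was at 2663 CPM in ApcMin and 4310 CPM in VApcMinL. A single VApcMinL cell held 65.0% of the C3 UMIs, and over all members the log2 ratio of C3 was 3.37, or 2.0 without the cell of each library with the most C3 and 1.12 without the Ptprc and Pdgfra limit. Clca4a was found in 16.8% of VApcMinL enterocyte-range cells. In the left-out sets all 8 of the highest genes were at least 2-fold higher over the mitochondrial limit, and 5 of 8 among barcodes with a Ptprc or Pdgfra UMI, where C3 was at -0.41. Of the 8 lowest genes, 5 of 8 were at least 2-fold lower over the mitochondrial limit, and 3 of 8 with a Ptprc or Pdgfra UMI, where 4 of 8 kept their direction. Igkc, Igha and Jchain turned to 2.78, 2.48 and 2.03 over the mitochondrial limit.

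Of uptake genes, Pck1, an enzyme of gluconeogenesis, was at 121 and 313 CPM over all members (log2 1.37, and 1.06 in enterocyte-range cells). Slc11a2, the iron importer, was at 25.2 and 84.2 CPM (1.74 and 1.49). Mep1a, a brush border metalloprotease, was lower, at 89.4 and 50.6 CPM (-0.82 and -1.13), the only 1 of 13 hydrolases past 2-fold, and only in enterocyte-range cells. Among antimicrobial genes Reg1, a growth-related lectin of the regenerating family, was the only 1 of 7 past 2-fold, at 1075 and 2963 CPM (1.46), found in 22.9% and 45.9% of members. Reg3b, Apoa1, Fabp1 and Sis had log2 ratios of -0.17, 0.58, 0.31 and -0.39 in enterocyte-range cells, all under 2-fold. Pck1, Slc11a2, Mep1a and Duox2 were singled out after their values were seen. In the left-out epithelial barcodes over the mitochondrial limit and with a Ptprc or Pdgfra UMI, the log2 ratios of Pck1 were 1.69 and 3.66 and those of Reg1 3.64 and 4.83, while Mep1a turned from -0.50 to 0.78. Duox2, an oxidase of the mucosa, was at 32.1 and 4.11 CPM and found in 45.7% and 6.41% of members, on too few UMIs to be counted among the genes compared.

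MHC class II genes were lower in VApcMinL. All 4 with enough UMIs (Cd74, H2-Aa, H2-Ab1 and H2-Eb1) were at least 2-fold lower in enterocyte-range cells, at a median log2 ratio of -1.52. Cd74, the invariant chain, was at 1927 and 662 CPM (-1.54) and H2-Aa at 461 and 110 CPM (-2.06). Per member Cd74 had 0, 8.76 and 45.5 UMIs per 10000 in ApcMin and 0, 3.57 and 44.5 in VApcMinL, so the cells overlapped over the full range. Cd74 was also lower in both left-out epithelial sets (-1.74 and -1.47) and by less in barcodes without Epcam (-0.50). H2-Aa, H2-Ab1 and H2-Eb1 were at -2.07, -1.58 and -1.77 over the mitochondrial limit, but at -0.56, -0.49 and -0.73, under 2-fold, with a Ptprc or Pdgfra UMI. Cd74 stood at 0.89 times its level in empty droplets in ApcMin and 0.38 times in VApcMinL, and the part of free RNA in these values was not tested.

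Fam151a, of a little-studied family, was the lowest in VApcMinL, at 153 and 12.4 CPM (log2 -3.62), found in 64.3% and 21.6% of enterocyte-range cells. Gpx2, the glutathione peroxidase of the gut, was at 758 and 199 CPM (-1.93), and Enpp7 at 72.9 and 18.3 CPM (-1.99), found in 78.6% and 30.2%. All 3 were lower in both left-out epithelial sets as well: the log2 ratios were -3.42 and -2.45 for Fam151a, -2.83 and -2.65 for Gpx2 and -2.03 and -1.15 for Enpp7. In barcodes without Epcam Fam151a was at -0.04 and Gpx2 at 1.34. Gm8797, a predicted gene, was at -2.01 in enterocyte-range cells and -2.26 in barcodes without Epcam, but at 0.65 in Epcam barcodes with a Ptprc or Pdgfra UMI, on 3 and 27 UMIs.

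Over all members some extremes rested on 1 cell. Kcnq1ot1 (log2 -3.13), Agr2 (-2.41), Cybrd1 (3.83), Msx1 (3.78) and Slpi (3.62) drew 87.7%, 92.9%, 54.8%, 61.5% and 60.0% of their UMIs in the library where they were higher from a single cell. In enterocyte-range cells Kcnq1ot1 had 2 and 65 UMIs, too few to be counted among the genes compared. Its log2 ratio there was 1.22 with ApcMin set at 3 UMIs (ratio interval 0.930 to 29.5), so no direction can be given. Dut (-2.91), Prox1 (-2.80), Slc12a2 (-2.28) and Wfdc18 (-2.48) had most of their UMIs in low-range cells, which were 20.0% of ApcMin and 4.63% of VApcMinL members. Stem genes (4 of 4 lower, median -1.80) and genes of dividing cells (5 of 9 lower, -1.01) were also lower over all members. In enterocyte-range cells only 1 stem gene had enough UMIs, and it was at least 2-fold higher in VApcMinL (log2 2.29). The 2 division genes with enough UMIs there did not pass 2-fold (median 0.58).

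RNA of other cell types was present at low levels. Igkc, an immunoglobulin gene, was found in 100% of members of both libraries, and its log2 ratio of -2.34 rested on 1 ApcMin cell that held 91.0% of that library's Igkc UMIs. The B and plasma cell list took medians of 0.0392% and 0.0532%, against 3.35% and 3.45% of the UMIs of the other barcodes. The fibroblast list took 0.00625% and 0.00501%, against 2.13% and 2.14%, and Cd3e and Cd8a of T cells had no UMI. Globin genes took medians of 0.0447% and 0.0104%, against 17.2% and 4.68% in the other barcodes, and 67.2% in 1 VApcMinL member. These lists were low in nearly every member, and their part in the ratios was not tested.

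Clustering the members without integration gave 6 sub-clusters, which are given by number because most leading genes came from few cells. Sub-cluster 0 (79 members) held 17 of the 20 low-range cells and was led by Fxyd3, Ifitm1, Wfdc18, AC167229.1, Ifitm3 and Ifitm2. Sub-cluster 1 (78 members) had the highest antimicrobial and MHC class II medians, 3.75% and 0.233% of UMIs, and was led by Tff2, Gkn3, Igkc, Ighv9-2, Hba-a1 and Hba-a2, each from 1 or a few cells. Sub-clusters 2 (45 members; Slpi, C3, Rarres2, Mgp, Igfbp6 and Aebp1) and 3 (43 members; Ctrb1, Prss2, Cpa1, Cela2a, Clps and 2210010C04Rik) were led by genes of other cells, of stroma and of pancreas. They differed in immediate early and heat shock genes, at medians of 0.207% and 0.738%. Sub-cluster 4 (38 members) was led by Hbb-bt, Ereg, Car4, Bmp3, Fam13a and Ces2g, with Ces2g in 94.7% of its cells and 47.5% of the others.

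Sub-cluster 5 held 33 VApcMinL members (11.7%, 8.22 to 16.1) and none of the 35 ApcMin members (exact upper limit 10.0%). With every member thinned to 3000 UMIs before clustering, the sub-cluster with the most Tm4sf4 held 65 VApcMinL and 8 ApcMin members, a larger set than sub-cluster 5. The leading genes of sub-cluster 5 were Tm4sf4, Pmp22, Cybrd1, 2010109I03Rik, Sprr2a3 and Ly6d. Tm4sf4 was in 100% of its cells, at 1742 CPM, and in 18.7% of the other members. Sprr2a3, a cornified envelope gene, was in 93.9% and 26.9%. Sub-cluster 5 had the highest medians of the villus-tip and fat lists, 0.995% and 9.33%, and the lowest of brush border hydrolases, sugar genes and MHC class II, 0.824%, 0.324% and 0.00152%. By these medians sub-cluster 5 lay at the end of the enterocyte range that was rich in villus-tip and fat genes. Its antimicrobial median, 1.58% of UMIs, was not the lowest, since sub-clusters 3 and 4 had lower ones. Low antimicrobial RNA therefore did not set it apart. The pattern is given as a description, since these genes formed the cluster.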

How the data were processed

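RNA of single cells was captured with the 10x Genomics 3′ kit, version 3, and sequenced by the study. The authors deposited raw UMI counts per gene and barcode (unfiltered matrices). The submitters' notes name Cell Ranger 2.1.1 and Seurat 3.1.1, and the file headers Cell Ranger 3.1.0, with mm10. Barcodes with at least 3000 UMIs and at most 20% mitochondrial UMIs were kept without a doublet caller, and members were selected as in the report. UMIs were summed per library and given as CPM (per 1000000 UMIs) with exact Poisson intervals. Ratios between libraries used exact conditional binomial intervals and genes with at least 200 UMIs over the members, with a floor of 3 UMIs. Empty droplets were barcodes ranked 45000 to 90000 by UMIs. Sub-clusters used counts per 10000, 2000 variable genes, 20 components, 15 neighbours and Leiden resolution 0.5 (scanpy 1.11.5, with scipy 1.17.1, numpy 2.4.6 and Python 3.11.15). The scripts were tested on simulated data. The members, the lists and the comparisons were chosen with earlier results of these data known. Named genes were up to 4 per list by level and those at or near 0, the 15 highest over other barcodes, the 8 highest and 8 lowest library ratios, and 6 per sub-cluster. The same ratio rule in enterocyte-range cells, the low-range limit and any other gene named were chosen after the values were seen.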

Additional observations from a re-analysis of the deposited data

How the results depend on the processing

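No paired analysis was possible because there was a single library of each genotype, and for the same reason no replicate could be left out. A mitochondrial limit of 10% gave 11 ApcMin and 78 VApcMinL members, and no limit 62 and 476. The ratio of the shares lay between 6.58 and 8.74 in all 8 alternatives. At 10%, the low-range share was 54.5% and 14.1%, and the enterocyte list median 0.107% and 6.13%. As a share of UMIs outside mitochondrial genes the VApcMinL median was 6.66%. Genes at least 2-fold higher and lower numbered 283 and 753 with a minimum of 50 UMIs, 45 and 31 with 1000, 193 and 106 at 10%, and 237 and 751 without the Ptprc and Pdgfra limit, and 51 were lower in enterocyte-range cells. Of 42 named genes, 5 reversed. Agr2 had a log2 ratio of 0.68 as a mean over cells, 1.49 at 10% and 0.14 without the cell with most of its UMIs. Igkc, Jchain and Igha were at 0.066, 0.18 and 0.047 at 10% and at 0.42, 0.71 and 0.67 without that cell, and Cldn4 was at -0.81 without the Ptprc and Pdgfra limit. Resolution 1 gave 10 sub-clusters. The causes were not tested. The low-range share, the enterocyte-range count, the ratios without 1 cell and those without the Ptprc and Pdgfra limit were added after seeing the data.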
